A study of Homo sapiens with 5 samples.

Results

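Chromosome 21 outside the ERG-TMPRSS2 interval was described in VCaP cells from peaks of 2 histone marks. VCaP (Vcap in the labels) is an established human prostate cancer line that depends on androgen signalling. It carries a fusion of TMPRSS2, an androgen-regulated protease gene, with ERG, a gene for a transcription factor of the ETS family. Both genes lie on chromosome 21, and peaks that start between 39.7 and 42.95 Mb of build hg19 were left out. The members are the other chromosome 21 intervals of the 4 deposited peak lists, 5316 of 364358 intervals in all, or 1.46%. Monomethylation of histone H3 at lysine 4 (H3K4me1, antibody ab8895) gave 1854 and 1825 of them in replicates 1 and 2. Acetylation of histone H3 at lysine 27 (H3K27ac, antibody ab4729) gave 748 and 889. All libraries came from the same line, grown in DMEM with fetal bovine serum, with no treatment named. Whether replicates were grown apart is not stated, and p-values measure only the spread between these libraries, which may be technical. Depth is unknown, since the lists hold positions and peak names only. The 1 input library is not analysed here. No expression data or gene positions of this build are at hand, so the prostate identity of the cells was not checked against marker genes.

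H3K4me1 is laid down at enhancers, whether or not they are active, and on the flanks of promoters. H3K27ac is added at active enhancers and active promoters, so a site with both marks is commonly read as an active enhancer or promoter flank, and a site with H3K4me1 alone as a poised or weak enhancer. Chromosome 21 is the smallest human autosome. Its short arm consists largely of repeats, and its long arm is poor in genes next to the centromere and rich in genes towards its end.

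The chromosome was chosen by a measured value of these same lists, the percentage of H3K27ac regions that carry H3K4me1, which was the highest of the autosomes here. Levels against other autosomes are therefore given as values without a test, and a test was run only between the marks. Replicated regions, meaning merged overlapping peaks that hold a peak of both libraries of a mark, numbered 1314 for H3K4me1 and 654 for H3K27ac. They made up 67.4% of 1950 merged H3K4me1 regions, against 61.8% over all autosomes, and 77.1% of 848 merged H3K27ac regions, against 75.0% over all autosomes. In single libraries, 92.0 and 73.3% of H3K4me1 peaks on chromosome 21 outside the interval met a peak of the other library, and on the other autosomes 88.4 and 68.8% did. For H3K27ac these percentages were 89.0 and 87.4% on chromosome 21 outside the interval and 87.8 and 86.0% on the other autosomes. H3K4me1 replicate 1 had its highest recurrence of the 22 autosomes here, and replicate 2 its second highest after chromosome 20.

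Relative to occupied length, H3K4me1 covered more of chromosome 21 outside the interval than of any other autosome, in both libraries. Length was counted in 1 Mb bins that hold a peak of any list, which gave 32.75 Mb here. H3K4me1 peaks took up 4.31% of that length in replicate 1 and 6.18% in replicate 2, against 2.66 and 4.13% on the other autosomes together. The next highest were chromosome 17 with 42.1 kb per Mb in replicate 1, against 43.1 here, and chromosome 20 with 61.3 in replicate 2, against 61.8 here. The first place is thus held by a narrow margin, and it is given for this length only. Whether it holds with another length was not tested. Peak density, a different measure, did depend on the length: its mean relative value for H3K4me1 was 1.25 with these bins and 1.04 with whole 5 Mb windows.

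Both number and width contributed to this coverage. H3K4me1 peaks numbered 56.6 and 55.7 per Mb in replicates 1 and 2, against 43.5 and 46.1 on the other autosomes, and ranked 4 of 22 in each library. The median H3K4me1 peak was 521 bp wide in replicate 1 and 792 bp in replicate 2, against 448 and 651 bp on the other autosomes. These medians were the highest of the 22 autosomes in both libraries. The chromosome that came next was chromosome 20, with 505 and 737 bp.

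H3K27ac stood out less. Its peaks numbered 22.8 and 27.1 per Mb in replicates 1 and 2, against 19.98 and 23.7 on the other autosomes, in place 7 and 6 of 22. Median widths were 1045 and 640 bp, against 903 and 624 bp on the other autosomes. Its coverage came 5 of 22 in both libraries, at 34.1 and 31.7 kb per Mb, against 26.7 and 24.8 on the other autosomes. Chromosome 19 led on each of these H3K27ac measures in both libraries, with 37.2 and 45.5 peaks per Mb.

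**Figure D1:**
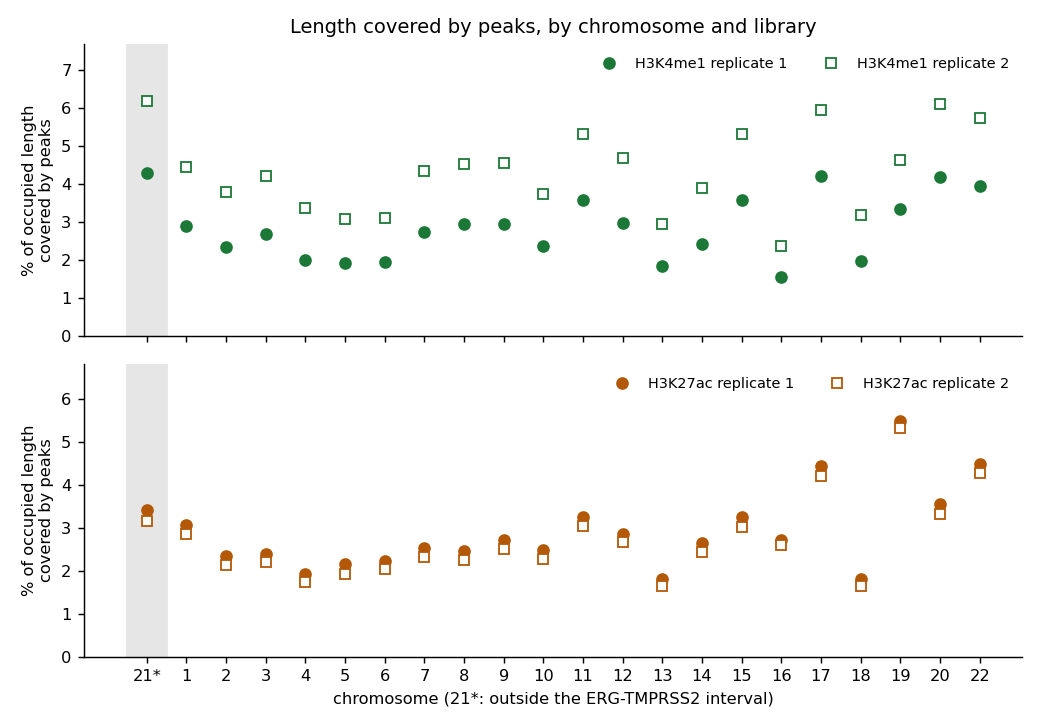
Percentage of the occupied length covered by peaks (vertical axis) for each autosome (horizontal axis), with H3K4me1 above and H3K27ac below; filled circles are replicate 1 and open squares replicate 2, and the grey band marks chromosome 21 outside the ERG-TMPRSS2 interval. Its H3K4me1 points, 4.31 and 6.18%, are the highest of their libraries, while its H3K27ac points lie below those of chromosomes 17, 19, 20 and 22.

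The excess over other autosomes was set between the marks with libraries as replicates. Peak density relative to the other autosomes was 1.30 and 1.21 in H3K4me1 replicates 1 and 2 and 1.14 and 1.15 in H3K27ac replicates 1 and 2. The means were 1.25 ± 0.066 for H3K4me1 and 1.15 ± 0.0031 for H3K27ac (SD, n = 2 each), and the libraries of the marks did not overlap. Relative covered length was 1.62 and 1.50 for H3K4me1 and 1.28 and 1.28 for H3K27ac, again without overlap. Its means were 1.56 ± 0.084 for H3K4me1 and 1.28 ± 0.00245 for H3K27ac. Relative median width was 1.16 and 1.22 for H3K4me1 and 1.16 and 1.03 for H3K27ac, with means of 1.19 ± 0.038 and 1.09 ± 0.093. As log2 ratios, H3K4me1 minus H3K27ac, the differences were 0.13 for density, 0.28 for covered length and 0.13 for width. An exact permutation test, two-sided, gave p = 0.333 for each of these 3 differences, and 0.333 after Benjamini-Hochberg adjustment over the 3. This is the smallest value that 2 against 2 libraries allow, so the test cannot decide whether the marks differ. The share that chose the chromosome also went with H3K4me1 coverage over the autosomes. A larger excess of H3K4me1 is therefore not independent of that choice, and the differences are a description. Relative density varied with the length and the chromosomes used. With whole 5 Mb windows as the length, it was 1.04 for H3K4me1 and 0.947 for H3K27ac. Against chromosome 20 alone it was 0.931 for H3K4me1 and 0.902 for H3K27ac, and against chromosome 22 alone 0.953 and 0.703, so both marks were then less dense on chromosome 21 outside the interval. The log2 difference between the marks in relative density was 0.05 against chromosome 20 and 0.44 against chromosome 22.

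Most H3K27ac regions of chromosome 21 outside the interval met an H3K4me1 region. Of 654 H3K27ac regions, 588 did so by at least 1 bp, or 89.9% (exact 95% binomial interval 87.3 to 92.1%, counting error only), against 74.3% over all autosomes. The share was 84.8% on chromosome 20, which came second, and 74.7% on chromosome 22, an acrocentric chromosome of similar size. H3K4me1 regions covered 69.5% of the H3K27ac length here, 61.8% on chromosome 20 and 51.9% on chromosome 22. These shares chose the chromosome and are a description of it. H3K4me1 coverage moved with them: replicated H3K4me1 regions took up 5.73% of the occupied length here, 5.68% on chromosome 20, 5.51% on chromosome 17 and 5.34% on chromosome 22, and its part in the shares was not tested. Chromosome 17, with nearly the same H3K4me1 coverage, had a share of 74.4%.

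Single libraries were paired as well. H3K27ac replicate 1 had 88.8 and 93.7% of its peaks on peaks of H3K4me1 replicates 1 and 2, against 72.3 and 80.4% on the other autosomes. H3K27ac replicate 2 had 85.5 and 91.5%, against 70.0 and 78.5% on the other autosomes. With the same number of widest peaks taken from each list, the share was lower, at 71.1% on chromosome 21 outside the interval and 50.1% on the other autosomes.

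In the opposite direction the share was nearer to that of the other autosomes. Of 1314 H3K4me1 regions, 642 met an H3K27ac region, or 48.9% (46.1 to 51.6%), against 47.0% over all autosomes. That share ranked 7 of 22, and was 48.9% on chromosome 20 and 56.2% on chromosome 22. With equal numbers of widest peaks it was 60.8% on chromosome 21 outside the interval and 61.8% on the other autosomes. There were 2.01 H3K4me1 regions for each H3K27ac region, against 1.82 on the other autosomes, in place 6 of 22. More than 50% of H3K4me1 regions thus lay apart from replicated H3K27ac both on chromosome 21 outside the interval (672 of 1314) and on the other autosomes (43561 of 82178).

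Shares were also taken by width, which describes the value that chose the chromosome and does not test it. H3K27ac regions were sorted into 5 width classes of nearly equal size over all autosomes. From narrowest to widest, 84.2, 85.2, 88.5, 93.1 and 96.9% of the regions on chromosome 21 outside the interval met H3K4me1. On the other autosomes these shares were 68.5, 70.0, 71.7, 75.2 and 85.1%. The share of chromosome 21 was the higher one in each class. In percentage points the gap was smallest among the widest regions, where the shares lay nearest to their upper limit. For H3K4me1 regions the shares on H3K27ac were 30, 32.7, 30.8, 50.4 and 78.6% here and 28.3, 36.7, 42.9, 51.3 and 76.2% on the other autosomes. They were thus lower here in 3 of 5 classes, with the widest gap in the middle class (25 to 37.1% here). In classes 2 and 4 the intervals here, 26.5 to 39.4% and 44.3 to 56.4%, held the values of the other autosomes.

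**Figure D2:**
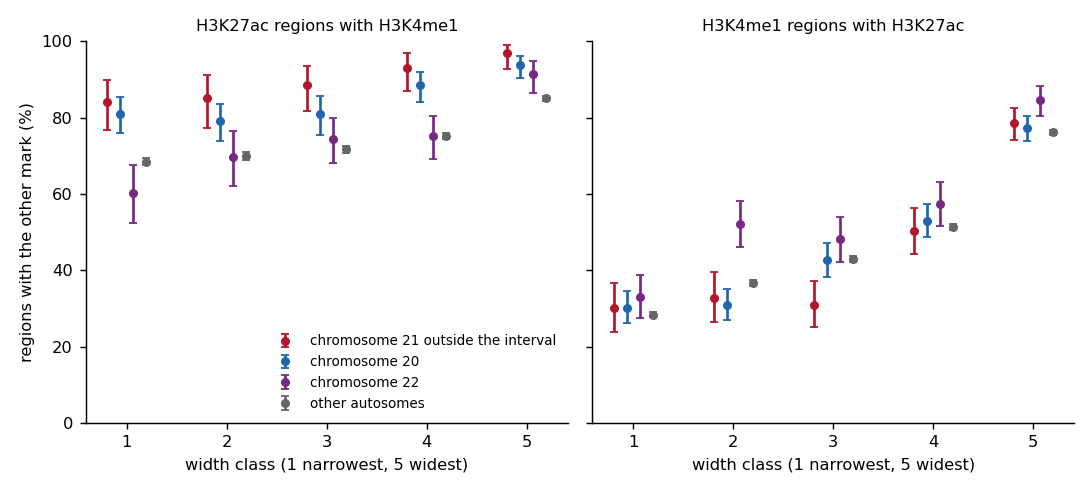
Percentage of regions that overlap a region of the other mark (vertical axis) by width class (horizontal axis, 1 narrowest to 5 widest), for H3K27ac regions on the left and H3K4me1 regions on the right; points are shares and bars exact 95% binomial intervals, with the other autosomes including chromosomes 20 and 22. For H3K27ac regions chromosome 21 outside the interval has the highest point in each class, from 84.2 to 96.9%, and for H3K4me1 regions its point in class 3, 30.8%, is the lowest of the 4.

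H3K4me1 reached further into wide H3K27ac regions here, which is close to the value that chose the chromosome and a description only. Among the 275 H3K27ac regions over 1544 bp on chromosome 21 outside the interval, H3K4me1 covered the middle base of 58.5%, against 37.2% on the other autosomes. It covered the outer positions, at 0.75 of the way from the middle to the end, in 75.8%, against 56.7% on the other autosomes. The ratio of middle to outer coverage was 0.772, against 0.655 on the other autosomes, so the middle was covered less often than the ends here as well. All 3 positions were covered in 50.5% of these regions, against 29.7% on the other autosomes. Chromosome 20 lay between, with 46.3% at the middle, 66.0% at the outer positions, 37.7% at all 3 and a ratio of 0.701. On chromosome 22 all 3 positions were covered in 29.8%.

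Regions with the other mark were wider than regions without it. H3K27ac regions with H3K4me1 had a median width of 1379.5 bp and those without it 804 bp, a ratio of 1.72, against 1.33 on the other autosomes. H3K4me1 regions with H3K27ac had a median of 1578.5 bp and those without it 898.5 bp, a ratio of 1.76, against 1.51 on the other autosomes. For H3K27ac the ratio was 1.55 on chromosome 20 and 1.45 on chromosome 22. For H3K4me1 it was 1.71 on chromosome 20, close to the value here, and 1.54 on chromosome 22. Width and overlap cannot be told apart here, since a wide region is more likely to meet another.

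Along the chromosome, both marks were densest just beyond the interval and sparsest from 20 to 25 Mb among the windows of the long arm from 15 Mb on. Of the 5 Mb windows outside the interval, 6 held at least 20 H3K27ac regions. In order from 15 to 20, 25 to 30, 30 to 35 and 35 to 39.7 Mb, and then 42.95 to 45 and 45 to 50 Mb, they had 15.8, 14.6, 24.2, 29.6, 47.3 and 29.0 H3K27ac regions per Mb. In the same order they had 45.4, 27.2, 50, 62.1, 74.6 and 46.5 H3K4me1 regions per Mb. H3K27ac regions with H3K4me1 made up 89.9, 90.4, 91.7, 92.1, 93.8 and 87.9%. In the windows with fewer regions it was 15 of 17 from 20 to 25 Mb, 4 of 8 from 10 to 15 Mb and 0 of 4 from 5 to 10 Mb. Over 519 windows of the other autosomes with at least 20 H3K27ac regions the share had a median of 74.5% and a 90th percentile of 87.5%. Since this share chose the chromosome, high values in its windows are a description only.

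**Figure D3:**
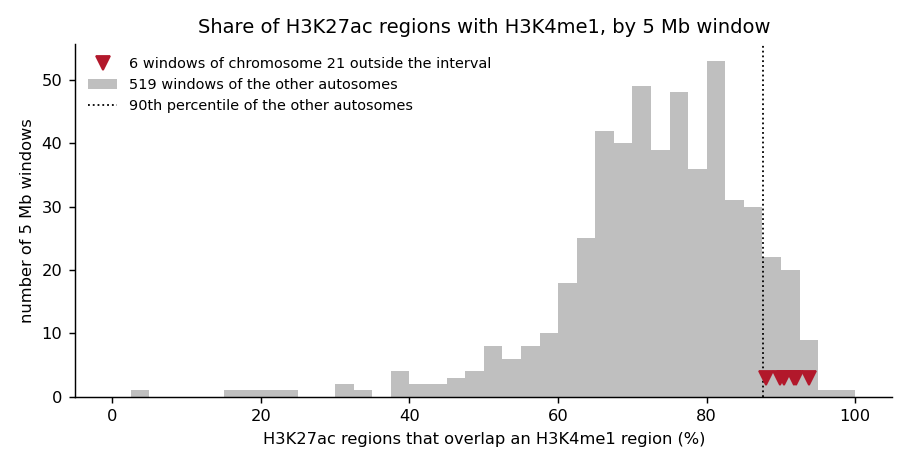
Number of 5 Mb windows (vertical axis) by the percentage of their H3K27ac regions that overlap an H3K4me1 region (horizontal axis); grey bars are 519 windows of the other autosomes with at least 20 H3K27ac regions, red triangles the 6 such windows of chromosome 21 outside the interval (their height has no meaning), and the dotted line the 90th percentile of the grey windows, 87.5%. The triangles lie between 87.9 and 93.8%.

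The libraries agreed on where peaks were dense. H3K4me1 replicates 1 and 2 had 324 and 336 peaks from 15 to 20 Mb, 85 and 98 from 20 to 25 Mb, 200 and 205 from 25 to 30 Mb, 366 and 353 from 30 to 35 Mb, 410 and 389 from 35 to 39.7 Mb, 211 and 182 from 42.95 to 45 Mb and 244 and 243 from 45 to 50 Mb. H3K27ac replicates 1 and 2 had 98 and 124, 21 and 23, 85 and 94, 136 and 160, 155 and 187, 110 and 126, and 128 and 157 peaks in the same windows. The window from 20 to 25 Mb was the poorest of these for both marks, with 60 H3K4me1 and 17 H3K27ac regions. Between 10 and 15 Mb peaks fell in 1 occupied bin, with 10 H3K4me1 and 8 H3K27ac regions.

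Within these windows peaks were unevenly spread. The 3 Mb from 24 to 27 Mb held 14 and 20 H3K4me1 peaks in replicates 1 and 2 and 2 and 1 H3K27ac peaks. The next 3 Mb, from 27 to 30 Mb, held 193 and 195 H3K4me1 and 84 and 93 H3K27ac peaks. The step between them was present in each library. A single bin beyond the interval, from 43 to 44 Mb, held 120 and 96 H3K4me1 and 58 and 64 H3K27ac peaks.

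**Figure D4:**
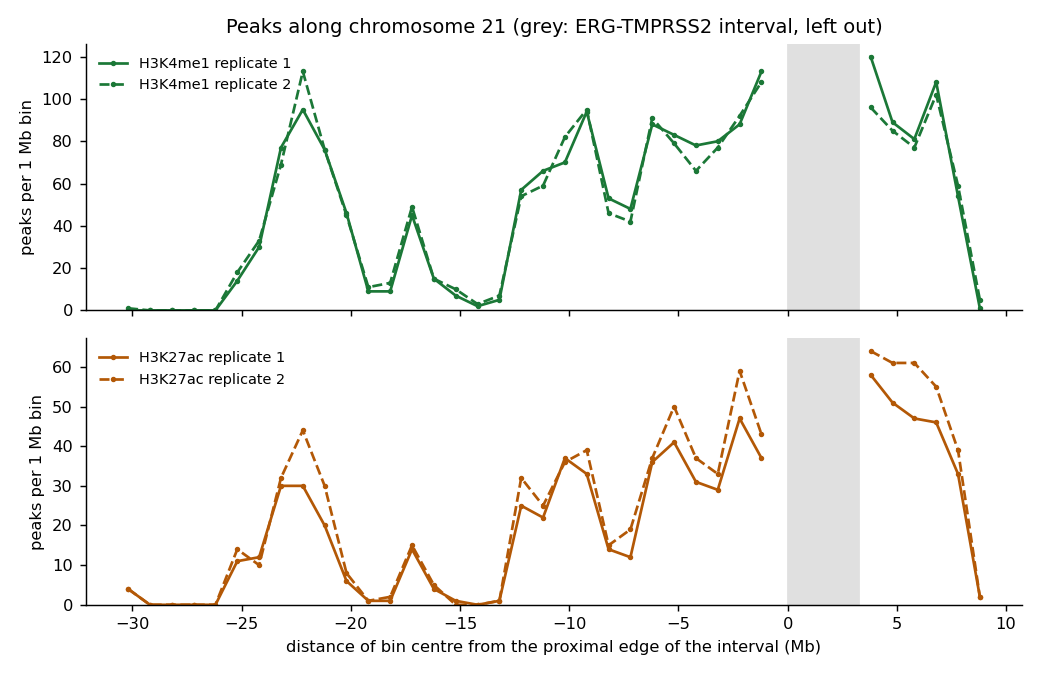
Peaks per 1 Mb bin (vertical axis) along chromosome 21, by distance from the proximal edge of the ERG-TMPRSS2 interval in Mb (horizontal axis), with H3K4me1 above and H3K27ac below; solid lines are replicate 1, dashed lines replicate 2, and the grey band is the interval, whose bins are not drawn. Replicates follow each other, with a trough of 14 and 20 H3K4me1 peaks in replicates 1 and 2 over the 3 Mb that start 15.7 Mb before the interval.

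The window from 15 to 20 Mb was rich in H3K4me1 for its H3K27ac. From 15 to 20 Mb there were 2.87 H3K4me1 regions for each H3K27ac region, more than in 96.0% of the 519 windows of the other autosomes. H3K27ac recurred less between libraries there, with 67.5% of merged regions replicated, above only 9.25% of those windows. Of the 227 H3K4me1 regions, 37.9% met H3K27ac (31.6 to 44.5%). The ratio was higher still from 20 to 25 Mb, at 3.53, though from 60 H3K4me1 and 17 H3K27ac regions only.

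The window from 25 to 30 Mb had narrow H3K27ac regions. Their median was 685 bp over 73 regions, against 1379 bp over the 581 other H3K27ac regions of chromosome 21 outside the interval, and only 0.385% of the 519 windows had a lower median. The peaks were narrow in both libraries, with medians of 580 and 453.5 bp in H3K27ac replicates 1 and 2, against 1095 and 688 bp elsewhere on the chromosome. Regions under 550 bp made up 34.2% there and 18.6% elsewhere. H3K4me1 regions of the same window were not narrow, with a median of 1152 bp, against 1113.5 bp elsewhere, and 90.4% of its H3K27ac regions (81.2 to 96.1%) met H3K4me1. This window was singled out after its values were seen.

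**Figure D5:**
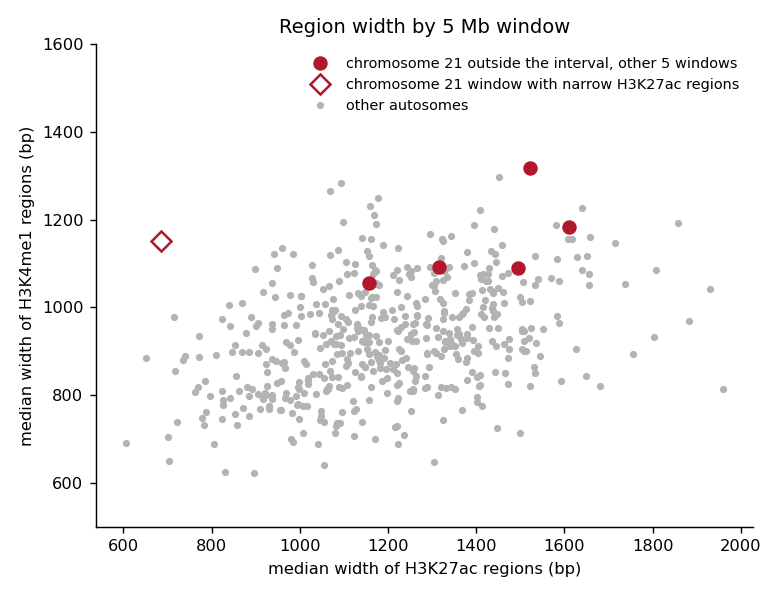
Median width in bp of H3K4me1 regions (vertical axis) and H3K27ac regions (horizontal axis) in 5 Mb windows with at least 20 H3K27ac regions; filled red points are 5 windows of chromosome 21 outside the interval, the open diamond is the window from 25 to 30 Mb, and grey points are windows of the other autosomes. The diamond lies at 685 bp for H3K27ac and 1152 bp for H3K4me1, apart from the grey points, and both axes start above 0.

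The window just beyond the interval carried the densest marks of the chromosome outside it. From 42.95 to 45 Mb, H3K4me1 regions were denser than in 99.8% of the 519 windows and their median width of 1317 bp exceeded that of every one of them. H3K27ac regions were denser there than in 99.2% of the windows. This window was cut at the edge of the interval and held 2.05 occupied Mb, less than a whole window. A short window can reach extreme values more easily, and whether its size raised these ranks was not tested. Of the 153 H3K4me1 regions, 63.4% met H3K27ac (55.2 to 71.0%), and from 45 to 50 Mb 60.2% of 186 did (52.8 to 67.3%). Before the interval the share of H3K4me1 regions with H3K27ac lay between 31.7 and 49.2% in the windows from 15 Mb on.

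The sides of the interval differed in the same sense in each library. Beyond it, 58.2 and 59.6% of H3K4me1 replicate 1 peaks lay on peaks of H3K27ac replicates 1 and 2, and before it, from 14 Mb, 43.2 and 41.7% did. For H3K4me1 replicate 2 these shares were 55.1 and 56.7% beyond the interval and 37.4 and 36.8% before it. H3K27ac peaks numbered 39.3 and 46.8 per Mb beyond it in replicates 1 and 2 and 19.7 and 23.4 before it. H3K4me1 peaks numbered 75.2 and 70.2 per Mb beyond it and 54.4 and 54.4 before it. H3K4me1 met H3K27ac regions about as often on both sides, at 90.6% of 213 regions beyond the interval (85.9 to 94.2%) and 90.4% of 437 before it (87.2 to 93.0%).

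Marks can also be counted per gene. The RefSeq table at hand belongs to GRCh38 and was used for gene names and their order only. On the long arm it lists 119 protein-coding genes from LIPI to KCNJ15, before ERG, of which 33 are keratin-associated protein genes, whose products belong to the hair shaft. The genes before ERG include NRIP1, which encodes a co-regulator of nuclear receptors, APP, the amyloid precursor gene, SOD1, which encodes a superoxide dismutase, and RUNX1, which encodes a transcription factor of blood formation. After TMPRSS2 it lists 82, of which 16 are keratin-associated, with TFF1 and TFF3, genes of secreted trefoil peptides, among them. Taking the interval to hold ERG to TMPRSS2 as its name says, there were 8.19 H3K4me1 and 3.67 H3K27ac regions per protein-coding gene before it, and 4.13 H3K4me1 and 2.60 H3K27ac regions per gene beyond it. Per Mb, in contrast, both marks were denser beyond the interval. Both sides together had 6.54 H3K4me1 regions per gene, place 2 of 22 autosomes, and 3.25 H3K27ac regions per gene, place 3 of 22, at 6.14 protein-coding genes per occupied Mb, which was place 13 of 22. No gene was assigned to a region, because the positions belong to different builds.

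Large H3K27ac domains lay on both sides of the interval. Joining H3K27ac regions within 0.0125 Mb of each other gave 345 domains, of which 50.7% were a single region, against 60.9% on the other autosomes. A total of 4 domains held at least 20 kb of H3K27ac, or 12.2 per 100 Mb, against 4.45 on the other autosomes and 11.5 on chromosome 20. Chromosome 22 had 3 such domains, or 8.57 per 100 Mb.

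The domain with the most H3K27ac lay from 43933191 to 43992339, with 24.2 kb in 7 regions (23.6 and 22.3 kb in H3K27ac replicates 1 and 2). H3K4me1 covered 51.6% of its span, and all 7 regions met H3K4me1. The second, from 38069932 to 38101133, had 21.6 kb of H3K27ac in 3 regions (21 and 20.5 kb) and 34.8% of its span in H3K4me1. The third, from 44135583 to 44170468, had 21 kb in 4 regions (20.2 and 20.2 kb) and 58.5% of its span in H3K4me1. It shares with the first the window from 42.95 to 45 Mb, where both marks were densest.

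The next 2 domains stand close together before the interval. One ran from 37484817 to 37540894 with 20.7 kb in 10 regions (20.1 and 19.0 kb), of which 9 met H3K4me1. The other ran from 37556314 to 37582231 with 17.9 kb in 7 regions (17.1 and 15.3 kb), and H3K4me1 covered 63.1% of it. In each of the 5 domains the lengths in the H3K27ac libraries were close to each other.

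The widest single H3K27ac region, from 38069932 to 38089549, opened the second domain. It was 19618 bp wide and formed 1 unbroken peak in each library, of 19618 bp in replicate 1 and 19243 bp in replicate 2. H3K4me1 covered 29.1% of it, in 5 peaks of replicate 1 and 4 peaks of replicate 2. The next widest, from 44150015 to 44159967 (9953 bp), was covered by H3K4me1 over 88.6%, and the one from 37876769 to 37885496 (8728 bp) over 96.2%. The region from 17790368 to 17798772 (8405 bp) had H3K4me1 over 36.7%, and that from 37556314 to 37564054 (7741 bp) over 78.2%. Wide H3K27ac on this chromosome therefore ranged from little to nearly complete cover by H3K4me1.

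The 5 widest H3K4me1 regions each carried H3K27ac over more than 50% of their length. They lay from 43940363 to 43948965 (8603 bp, 76.8% covered), from 44151842 to 44160015 (8174 bp, 99.4%), from 38085034 to 38092513 (7480 bp, 80.9%), from 16245634 to 16252685 (7052 bp, 71.1%) and from 46519032 to 46525907 (6876 bp, 57.6%). The first 3 of these fall inside the 3 largest H3K27ac domains.

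H3K27ac without H3K4me1 was rare and narrow. Its rarity restates the share that chose the chromosome and is a description only. Of 654 H3K27ac regions, 66 met no replicated H3K4me1 region, and 34 of those touched a peak of 1 H3K4me1 library, 30 of them a replicate 2 peak. The other 32 met no H3K4me1 peak of either library, and 95.1% of H3K27ac regions thus met one, against 84.0% over all autosomes. Their median width was 645.5 bp. The widest lay from 34442181 to 34444123 (1943 bp), 1860 bp from the nearest H3K4me1 peak. It was followed by regions from 43187592 to 43189307 (1716 bp), from 46237108 to 46238682 (1575 bp), from 30390725 to 30392282 (1558 bp) and from 35303431 to 35304835 (1405 bp), which lay 1617, 330, 102 and 6546 bp from an H3K4me1 peak. All but the last of these 5 thus stood within 2 kb of H3K4me1.

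On the short arm no H3K27ac region met H3K4me1. Before 14 Mb there were 4 H3K27ac peaks in each library, all between 9540036 and 9968682, which formed 4 replicated regions. H3K4me1 had 0 peaks there in replicate 1 and 1 in replicate 2. These are 4 of the 32 H3K27ac regions without an H3K4me1 peak, and 13 of the 32 lie beyond the interval. The H3K4me1 peaks nearest to the short-arm regions were 32841 to 374302 bp away. This arm consists largely of repeats, and whether reads were placed correctly there was not tested.

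H3K4me1 runs without H3K27ac were about as frequent as elsewhere by number, but held less of the H3K4me1 length. Joined within the same distance, H3K4me1 regions formed 521 runs, of which 197 (37.8%) held no H3K27ac peak of either library, against 39.8% on the other autosomes. They held 13.0% of the H3K4me1 length here, against 17.9% on the other autosomes, 14.5% on chromosome 20 and 13.0% on chromosome 22. Runs of at least 3 regions without H3K27ac numbered 11, or 3.36 per 10 Mb, against 3.46 on the other autosomes. The 3 with the most H3K4me1 each had 4 regions and lay from 39495061 to 39513285 (6.95 kb of H3K4me1), from 39270995 to 39289395 (5.05 kb) and from 38548787 to 38564886 (4.77 kb). All 3 lie in the last 2 Mb before the interval. H3K4me1 replicate 1 alone gave 5.01, 3.44 and 3.40 kb in them and replicate 2 gave 6.28, 5.27 and 4.77 kb.

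None of the replicated regions nearest to the edges of the interval crossed an edge. At 39.7 Mb the last H3K4me1 region outside started 1.32 kb before the edge (1093 bp wide) and the first inside 14.4 kb after it (2272 bp). Neither met H3K27ac. The last H3K27ac region outside started 4.06 kb before that edge (802 bp) and the first inside 140.8 kb after it (685 bp), and both were fully covered by H3K4me1. At 42.95 Mb the first H3K4me1 region outside (4990 bp) started 0.451 kb beyond the edge and the last inside (1358 bp) 2.65 kb before it, and both were fully covered by H3K27ac. The first H3K27ac region outside (5308 bp) and the last inside (1611 bp) started 0.237 and 2.72 kb from that edge, with 94.0 and 84.3% of their length in H3K4me1. Inside the interval 87.5% of 104 H3K27ac regions met H3K4me1 (79.6 to 93.2%). Over the whole chromosome, interval included, 89.6% did.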

How the data were processed

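Peaks of H3K4me1 (2 libraries) and H3K27ac (2 libraries) in VCaP cells were used. The authors deposited 1 peak list per library, with chromosome, start, end and name, so the other values, region widths and counts, derive from positions in bp. Per the submitters' processing notes, bcl2fastq 2.17, Trimmomatic 0.33, Bowtie 1.1.2, MACS2 2.1.0 and build hg19 were involved; their roles, the peak threshold and the control: not given in the sources used here. Per the values, the smallest peak width and gap differ by list, which affects number and width of peaks.

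Positions are counted from 1. Peaks were merged and overlapped with Python 3.11.15 and NumPy 2.4.6, after 10 of 10 checks on simulated data were recovered. Overlap meant 1 bp or more. Domains and runs join regions within 0.0125 Mb. Densities use 1 Mb bins that hold a peak of any list. Intervals are exact 95% binomial ones. Libraries of the marks were compared by exact permutation. Named are the 5 widest regions per mark, the 5 H3K27ac domains with the most H3K27ac, the 5 widest H3K27ac regions without any H3K4me1 peak, the 3 largest H3K4me1 runs without H3K27ac and the regions at the edges of the interval. The members, windows and classes were chosen with earlier results of these data known. Sequences are not shown, since no genome of build hg19 is at hand. Alternatives changed widths, peak numbers, libraries, lengths, overlap and the chromosomes compared.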

Additional observations from a re-analysis of the deposited data

How the results depend on the processing

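There were 7 results and 74 alternatives. The 3 differences between marks kept their sign in all 34 of theirs, though their size changed widely, and no exact p here can pass 0.05. Of the 40 alternatives for relative densities and shares, 15 stayed within the spread of libraries or the binomial interval, 17 moved further on the same side of the comparison, and 8 turned to the other side. Relative H3K4me1 density turned to 0.953 against chromosome 22 and 0.931 against chromosome 20, and was 1.50 with equal numbers of widest peaks and 1.04 with 5 Mb windows as the length. Relative H3K27ac density turned to 0.703 against chromosome 22, 0.902 against chromosome 20 and 0.947 with 5 Mb windows. It was 1.16 with a common minimum width and joining distance, 1.16 with equal numbers of widest peaks, 1.21 for the whole chromosome and 1.11 over the span between the outermost peaks. The share of H3K4me1 regions on H3K27ac turned with equal numbers of widest peaks (60.8%, against 61.8% on the other autosomes) and, at 48.9%, against chromosome 22 (56.2%) and, only beyond the rounding shown, against chromosome 20 (48.9%). It was 44.0% with an overlap of 50% of the shorter region, 41.9% with the union of peaks and 39.0 to 52.4% without 1 library. The share of H3K27ac regions on H3K4me1 was 71.1% with equal numbers of widest peaks, 84.9% with the 50% overlap, 93.6% with the union and 87.2 to 94.5% without 1 library, above its comparison in each. As log2 values, H3K4me1 minus H3K27ac, the differences in density, width and covered length were 0.37, 0.07 and 0.45 with equal numbers of widest peaks, 0.44, 0.23 and 0.52 against chromosome 22, and 0.05, 0.02 (exact p = 1) and 0.09 against chromosome 20. Without 1 library they were 0.08 to 0.18, 0.04 to 0.21 and 0.23 to 0.34. The cause of these moves was not tested. With a replicate block the differences stayed at 0.13, 0.13 and 0.28 (exact p = 0.5, the smallest 2 pairs allow). Same-numbered libraries did not deviate together in peak counts (r = -0.0715 over 266 bins of 100 kb of chromosome 21). This cannot tell whether they shared a culture or a batch. Depth is unknown, so a peak missing from 1 list may have been under its threshold.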

Other observations

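Agreement between libraries was also measured by base, on chromosome 21 outside the interval, the other autosomes together and chromosomes 20 and 22. Bases covered in both H3K4me1 libraries made up 61.0% of those in merged H3K4me1 regions, against 51.8% on the other autosomes, 57.8% on chromosome 20 and 56.5% on chromosome 22. For H3K27ac the share was 79.8% on chromosome 21 outside the interval, against 76.9% on the other autosomes, 78.9% on chromosome 20 and 78.8% on chromosome 22. A replicated H3K4me1 region held 1.30 peaks of H3K4me1 replicate 1 here, against 1.23 on the other autosomes, and 1.02 peaks of replicate 2 on both. A replicated H3K27ac region held 1.02 peaks of H3K27ac replicate 1 and 1.19 of replicate 2, against 1.02 and 1.18 on the other autosomes.

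Across the 22 autosomes, the share of H3K27ac regions with H3K4me1 went with the percentage of length covered by H3K4me1 regions (Spearman's rho 0.641, Pearson's r 0.659). These chromosomes come from the same 4 lists and are not independent samples, and H3K4me1 coverage enters both measures. Of H3K27ac regions apart from H3K4me1, 48.5% of 66 lay within 5 kb of it on chromosome 21 outside the interval, against 42.0% on the other autosomes, and 6 of the 654 regions lay beyond 50 kb.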
